A study of Mus musculus with 6 samples.

Results

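The clustered protocadherins are cell-surface adhesion proteins of neurons whose genes lie side by side in 3 groups, the alpha, beta and gamma clusters. They were taken as every row of the adult brain count table whose gene name begins with Pcdha, Pcdhb or Pcdhg, which gave 58 of 53801 genes: 14 in the alpha cluster, 22 in the beta cluster and 22 in the gamma cluster. The samples were frozen hemispheres of C57BL/6 mice about 70 weeks old, 1 hemisphere per mouse, from 3 Bahd1-WT (Bahd1+/+) and 3 Bahd1-KO (Bahd1-/-) animals. Bahd1-KO mice came from crosses of Bahd1-Het1 mice and lack Bahd1, which encodes a heterochromatin factor, in all cells and from conception. Some of these pups die around birth, so the adult Bahd1-KO mice are survivors. Poly(A) RNA was sequenced with a strand-specific kit, and the question was which transcripts differ between the brains of the 2 genotypes.

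Each alpha or gamma gene has a large variable first exon with its own promoter, which codes for the extracellular cadherin repeats and the membrane span and is spliced to constant exons that code for a tail shared by the whole cluster. Beta genes consist of a single coding exon and have no constant exons. A neuron transcribes only some of the variable exons, chosen largely at random, and the proteins bind the same isoform on a facing membrane, which serves self-avoidance of dendrites and axons. The C-type genes at the end of the alpha and gamma clusters (Pcdhac1, Pcdhac2, Pcdhgc3, Pcdhgc4 and Pcdhgc5) are used more uniformly across neurons than the others. CTCF, cohesin, DNA methylation and heterochromatin factors act on the promoters of the clusters.

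All members lie on the plus strand of chromosome 18 of GRCm38. The alpha cluster runs from 36930184 to 37187661, the beta cluster from 37264938 to 37524479 and the gamma cluster from 37661793 to 37841873. By its default, which the options given for it do not change, the counting program leaves out reads on exons shared by several genes. It is inferred from this, and was not seen in the reads, that the constant exons count for no alpha or gamma member. Bases called countable here rest on this inference: a median of 46.4% of the exon bases of an alpha member and 55.3% of those of a gamma member lay outside every other gene of the same strand. In the beta cluster 20 of 22 members could be counted over their whole length. On this reading the counts below measure the variable exons and not the constant tail. Pcdha4 had 494 countable bases of 5768, since the read-through gene Gm42416, itself at 0 counts in every mouse, covers its variable exon. It had 1 count in each Bahd1-WT mouse and 0 in each Bahd1-KO mouse, under the limit of 3 counts that a count of 0 allows. It was not tested, which left 57 members. The symbol Pcdha11 stands on 2 rows. ENSMUSG00000102206 lies at the RefSeq position of Pcdha11 and ENSMUSG00000007440 at that of Pcdha10.

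The 6 libraries held 42297150 to 93557948 counts, of which the members took 0.0387% to 0.0513%. Bahd1 had 1383, 844 and 1099 counts in Bahd1-WT and 0, 14 and 1 in Bahd1-KO. Bahd1-KO replicate 2 stood farthest from the others: the median gene lay 0.49 from its mean over all mice on the log2 scale, against 0.11 to 0.30 in the other 5 libraries. Over 13677 genes of at least 1 CPM (counts scaled to the TMM-normalized library size) in every mouse, a gene's deviation from that mean went with the GC content of its countable exon bases. Spearman's rho was -0.74 to -0.82 in the Bahd1-WT mice, -0.16 in Bahd1-KO replicate 1, 0.69 in replicate 3 and 0.88 in replicate 2. Genotype and this GC trend cannot be told apart, and results are therefore given with and without an offset for GC content and exon length fitted to each library. The offset is on whole exons unless countable bases are named. Markers of neurons, astrocytes, oligodendrocytes, microglia, choroid plexus, Purkinje cells, serotonergic neurons and olfactory sensory neurons, 35 genes in all, were above 3 counts in every mouse. In whole tissue, fewer cells of a type and less RNA per cell cannot be told apart.

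No member passed the threshold of an adjusted p under 0.05 with at least 2-fold change (edgeR's quasi-likelihood test, Benjamini-Hochberg over 23975 genes), which 0.00834% of all genes tested passed. At an unadjusted p under 0.05 there were 11 of 57 members, against 31.8% of all genes: 4 were higher in Bahd1-KO (19.9% of all genes) and 7 were lower (12% of all genes). With DESeq2 and a prior, 1 member, Pcdha8, passed the threshold, as did 10.5% of all genes. At its adjusted p under 0.05 alone, 3 members were higher (14.3% of all genes) and 2 lower (2.85% of all genes). With the offset on whole exons added, no member passed DESeq2's threshold with 2-fold change (0.647% of all genes). At an adjusted p under 0.05 alone, 1 was then higher (5.4% of all genes) and 11 were lower (3.52% of all genes). All 11 were gamma A or B genes, and DESeq2 was not run with the offset on countable bases. At an adjusted p under 0.1, which 19.5% of all genes reached, edgeR left 5 members. Higher ones were Pcdha8, Pcdhga12 and Pcdhgc5 (14.7% of all genes) and lower ones Pcdhb21 and Pcdhga6 (4.77% of all genes). The values of the 3 mice of each genotype did not overlap for 2 members higher in Bahd1-KO and 16 lower, against 20.6% and 19.3% of all genes. The median log2 fold change (Bahd1-KO over Bahd1-WT) was -0.03 in the alpha cluster, -0.28 in the beta cluster and -0.15 in the gamma cluster, and -0.06 over all genes tested. The clusters were not tested against each other.

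**Figure D1:**
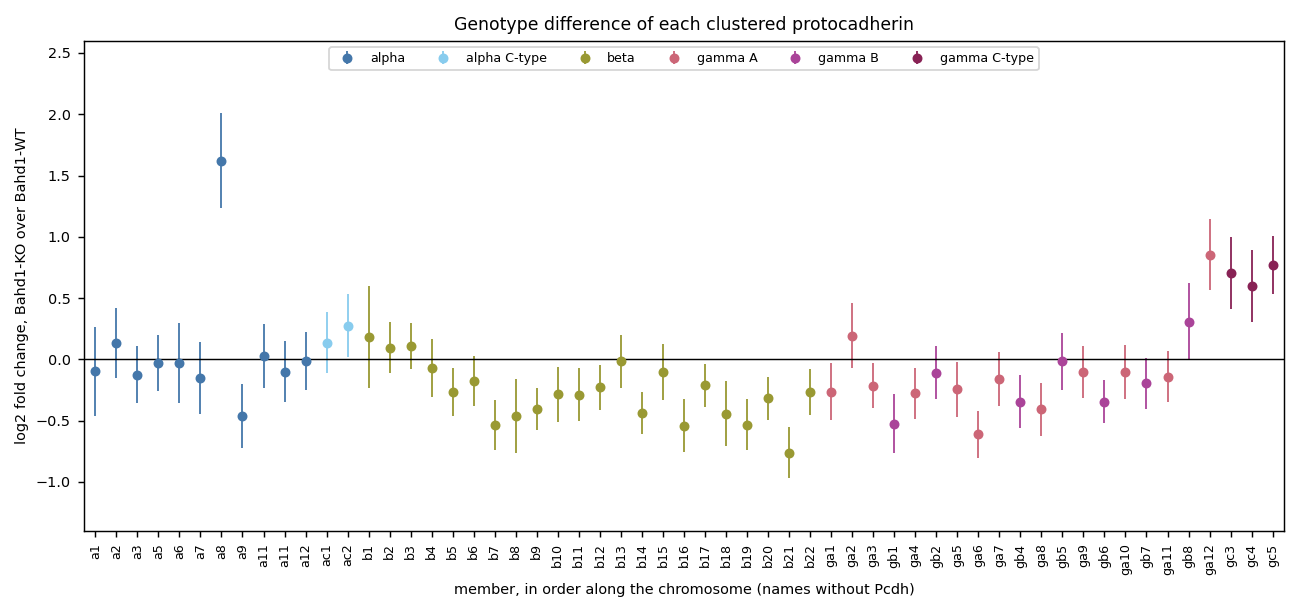
Log2 fold change (Bahd1-KO over Bahd1-WT, edgeR, bars are standard errors, n = 3 mice per genotype) of the 57 tested members in their order along the chromosome, with colours for the subfamilies. Most beta members lie below 0, while Pcdhga12 and the 3 gamma C-type genes at the right end lie between 0.60 and 0.86, without an offset for GC content, and Pcdha8 at 1.62.

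In the alpha cluster the levels of the 2 genotypes overlapped for every tested member but Pcdha8. Summed over the cluster, the mice had 33.3, 33.1 and 40.5 CPM in Bahd1-WT and 29.2, 41.2 and 44.8 CPM in Bahd1-KO, and the ranges overlapped. Pcdhac2, a C-type gene needed for the tiling of serotonergic axons, made up nearly all of the C-type counts: it stood at 5.63 CPM per kb of countable exon in Bahd1-WT against a cluster median of 0.59. It had 15.5, 15.8 and 19.9 CPM in Bahd1-WT and 13.6, 22.5 and 25.7 in Bahd1-KO. The lowest and the highest value of the 6 were both from Bahd1-KO mice, and the log2 fold change was 0.27 with a standard error (SE) of 0.26. It was 0.53 without Bahd1-KO replicate 1 and 0.19 with the offset on whole exons, and turned to -0.76 with the offset on the countable bases. Pcdhac1, the other C-type gene, had 1.27 to 1.75 CPM in Bahd1-WT and 1.31 to 1.85 in Bahd1-KO. The 4 serotonergic markers summed to 37.4, 55.9 and 45.9 CPM in Bahd1-WT and 58.9, 47.9 and 54.1 in Bahd1-KO. Only Slc6a4 did not overlap, with 3.81, 6.59 and 6.74 CPM in Bahd1-WT and 9.93, 10.97 and 10.45 in Bahd1-KO. Its log2 fold change was 0.87, and 0.68 with the offset on whole exons. Tph2, Fev and Slc18a2 had log2 fold changes of 0.34, 0.81 and -0.17, and with that offset of 0.52, -0.88 and 0.03.

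Pcdha8 was the weakest of the tested alpha members. It had 9, 10 and 10 counts in Bahd1-WT and 13, 52 and 20 in Bahd1-KO, which is 0.098, 0.16 and 0.14 CPM against 0.30, 0.55 and 0.35 CPM. Every Bahd1-KO mouse lay above every Bahd1-WT mouse, and Bahd1-KO replicate 2 was highest. The log2 fold change was 1.62 (SE 0.39), with an unadjusted p of 0.0026 and an adjusted p of 0.063 by edgeR's quasi-likelihood test. It stayed above 0 with the offset on the whole exons (1.76), with the offset on the countable bases (0.99) and without Bahd1-KO replicate 2 (1.30). As a share of the alpha cluster's counts Pcdha8 took 0.30 to 0.49% in Bahd1-WT and 0.77 to 1.32% in Bahd1-KO, so it remained a minor isoform in all mice.

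The more abundant variable alpha exons overlapped between the genotypes. Pcdha9 had 2.71, 3.14 and 2.69 CPM in Bahd1-WT and 1.54, 1.91 and 2.73 in Bahd1-KO, with a log2 fold change of -0.46 (SE 0.26). Bahd1-KO replicate 3 alone lay within the Bahd1-WT values. Its share of the cluster was lower without overlap, at 6.63 to 9.49% in Bahd1-WT and 4.64 to 6.09% in Bahd1-KO, but overlapped when the C-type genes were left out of the total (14.2 to 19.7% and 10.8 to 15.8%). Pcdha5, Pcdha12 and Pcdha3 had log2 fold changes of -0.03, -0.01 and -0.12, each within its standard error, and the other tested variable exons lay between -0.15 and 0.13. Pcdha9, Pcdha5, Pcdha12 and Pcdha3 were, with the offset on the countable bases, at -0.93, -0.46, -0.75 and -0.57, with unadjusted p of 0.0054, 0.090, 0.0041 and 0.014 by edgeR's quasi-likelihood test, and with that on whole exons at -0.32, 0.11, 0.07 and 0.03. These estimates come from 14 to 255 counts per mouse in the members other than Pcdha4 and Pcdha8.

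In the beta cluster 19 of 22 members had a negative log2 fold change without an offset. The summed level of the beta cluster was 212, 212 and 192 CPM in Bahd1-WT (205 ± 11.7, SD, n = 3) and 169, 149 and 176 CPM in Bahd1-KO (164 ± 13.9, SD, n = 3). The sums, which carry no offset for GC content, did not overlap, and the ratio of the means was 0.80. The neuron markers, by comparison, summed to 8267 to 9226 CPM in Bahd1-WT and to 8512, 6511 and 7736 CPM in Bahd1-KO replicates 1, 2 and 3. They did not move as one: Rbfox3 and Slc17a7 had log2 fold changes of 0.78 and 0.64, and the other 4 of -0.56 to -0.11. With the offset on whole exons Rbfox3 and Slc17a7 turned to -0.57 and -0.32, and the other 4 lay between -0.22 and 0.42. The part of the neuron markers in the beta result was not tested.

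Pcdhb21 had the lowest p of the beta members. It had 4.64, 5.25 and 4.19 CPM in Bahd1-WT and 2.62, 2.67 and 3.01 CPM in Bahd1-KO. The Bahd1-KO mice were close to each other and all below the Bahd1-WT mice. The log2 fold change was -0.76 (SE 0.21, adjusted p = 0.065, edgeR's quasi-likelihood test). It was -0.74 without Bahd1-KO replicate 2 and -0.29 with the GC and length offset, where the unadjusted p was 0.17. Of its 4705 exon bases 4250 could be counted.

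Pcdhb9 and Pcdhb14 were the most abundant beta members by CPM. Pcdhb9, at 7.41 CPM per kb in Bahd1-WT, had 22.4, 23.4 and 22.1 CPM in Bahd1-WT and 17.1, 15.0 and 19.2 in Bahd1-KO. All 3 Bahd1-KO values lay below the Bahd1-WT values, and the log2 fold change was -0.40 (SE 0.17). Pcdhb14 had 21.9, 23.8 and 20.2 CPM in Bahd1-WT and 15.4, 15.5 and 17.9 in Bahd1-KO. Its log2 fold change was -0.44 (SE 0.17) without the offset and 0.19 with it, so its direction turned. It has the lowest GC content of the members tested, 39.1%. Pcdhb7 had 8.25, 8.02 and 8.29 CPM in Bahd1-WT and 6.18, 4.60 and 6.15 CPM in Bahd1-KO. Its log2 fold change was -0.54 (SE 0.21), and with the offset it was -0.39 with an unadjusted p of 0.023. Pcdhb19 had a log2 fold change of -0.53 (SE 0.21), and of -0.05 with the offset. Pcdhb20 had one of -0.32 (SE 0.17), and of 0.0050 with it.

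Altogether 10 beta members were lower in all 3 Bahd1-KO mice than in all 3 Bahd1-WT mice (19.3% of all genes), and none was higher (20.6% of all genes). The 6 with an unadjusted p under 0.05 (12% of all genes) were Pcdhb7, Pcdhb9, Pcdhb14, Pcdhb19, Pcdhb21 and Pcdhb16, the last of which is named here after its values were seen (log2 fold change -0.54, SE 0.22, and -0.14 with the offset on whole exons). The 3 members with a log2 fold change above 0 were Pcdhb1, Pcdhb2 and Pcdhb3, also named after their values were seen, at 0.18, 0.10 and 0.11 with SEs of 0.42, 0.21 and 0.18. Along the chromosome, Spearman's rho between order and log2 fold change was -0.54 over the 22 beta genes, and that between GC content and log2 fold change was 0.50. Both are descriptions over genes that share the same 6 libraries.

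In the gamma cluster the 3 C-type genes and Pcdhga12 had log2 fold changes of 0.60 to 0.86 without an offset for GC content. Of the 19 A and B genes 16 had negative ones, as did 12803 of 23975 genes tested. With the offset on whole exons 18 of the 19 were below 0, as were 13479 of all genes. The summed level of the cluster was 230, 203 and 231 CPM in Bahd1-WT and 178, 259 and 276 CPM in Bahd1-KO, which overlapped. The A genes summed to 119.6 ± 3.41 CPM in Bahd1-WT and 107.2 ± 19.8 in Bahd1-KO (SD, n = 3), and the B genes to 45.5 ± 1.36 and 38.0 ± 5.99 CPM. The 3 C-type genes summed to 64.2, 42.8 and 61.8 CPM in Bahd1-WT and to 60.3, 110.9 and 106.5 CPM in Bahd1-KO replicates 1, 2 and 3. Bahd1-KO replicate 1 was thus within the Bahd1-WT range, and the other 2 Bahd1-KO mice were above it.

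Pcdhgc3, which acts on dendrite branching through Axin1, was the most abundant member of all, at 9.48 CPM per kb in Bahd1-WT. It had 36.7, 24.5 and 35.0 CPM in Bahd1-WT and 31.0, 65.8 and 59.9 CPM in Bahd1-KO. Bahd1-KO replicate 1 lay inside the Bahd1-WT range. The log2 fold change was 0.71 (SE 0.29, unadjusted p = 0.040 by edgeR's quasi-likelihood test), and with the offset it was 0.13. Pcdhgc4, which is needed for neuron survival, had 5.57, 3.69 and 6.04 CPM in Bahd1-WT and 5.15, 9.10 and 8.93 in Bahd1-KO. Its log2 fold change was 0.60 (SE 0.29), and -0.0038 with the offset.

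Pcdhgc5 was the C-type gene whose genotypes did not overlap. It had 22.0, 14.7 and 20.8 CPM in Bahd1-WT and 24.2, 36.0 and 37.6 in Bahd1-KO. Replicate 1 was again the lowest Bahd1-KO mouse, just above the highest Bahd1-WT mouse. The log2 fold change was 0.77 (SE 0.24, adjusted p = 0.077, edgeR's quasi-likelihood test), 0.70 without Bahd1-KO replicate 2, and 0.13 with the offset, where the unadjusted p was 0.35.

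Pcdhga12, the last of the A genes and the neighbour of the C-type genes, had 6.86, 5.47 and 6.19 CPM in Bahd1-WT and 6.69, 14.1 and 12.7 CPM in Bahd1-KO. Bahd1-KO replicates 2 and 3 were above all Bahd1-WT mice, and replicate 1 was among them. The log2 fold change was 0.86 (SE 0.29, adjusted p = 0.094, edgeR's quasi-likelihood test). With the offset it was 0.76 on the whole exons with an unadjusted p of 0.0066, and 0.95 on the countable bases with an unadjusted p of 0.0050. Without Bahd1-KO replicate 2 it was 0.66. Its countable bases have a GC content of 48.1%, below the median of 51.5% for the gamma cluster.

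**Figure D2:**
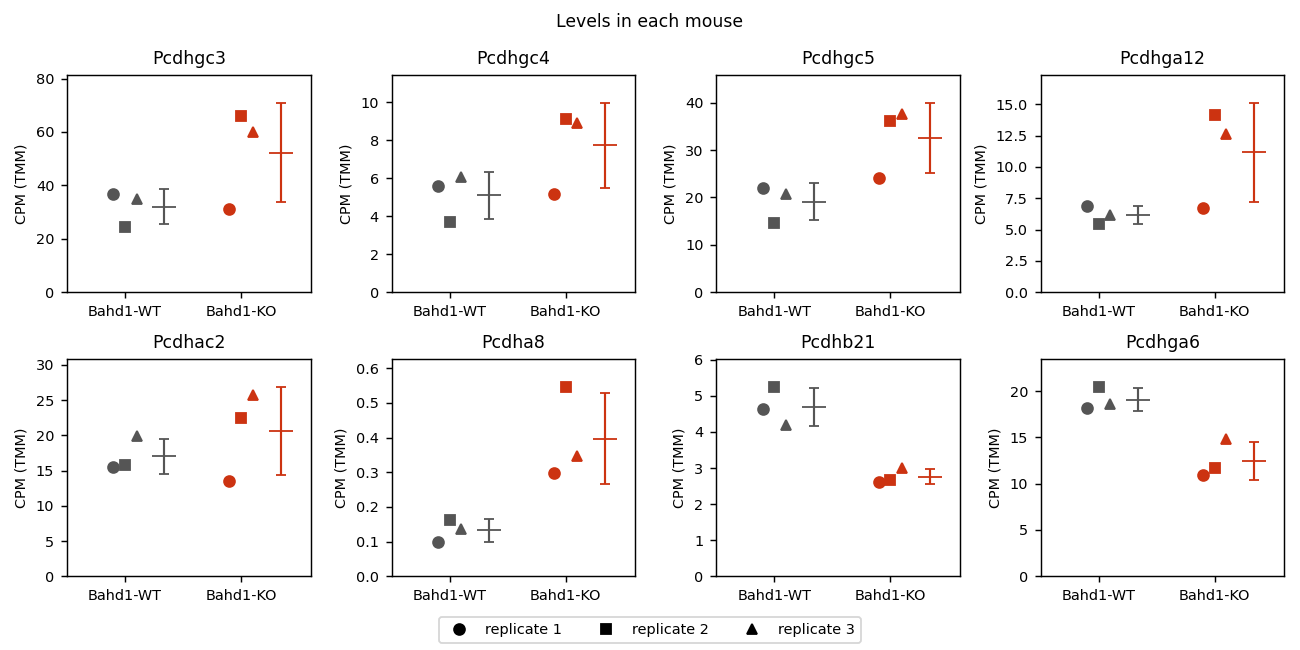
CPM (TMM-normalized) of 8 members in each mouse. Symbols mark replicates, dashes with bars the mean and SD of n = 3 mice, and every axis starts at 0. Bahd1-KO replicate 1 lies within the Bahd1-WT values for Pcdhgc3, Pcdhgc4 and Pcdhga12 and below them for Pcdhac2. All Bahd1-KO mice lie above the Bahd1-WT mice for Pcdha8 and Pcdhgc5, and below them for Pcdhb21 and Pcdhga6.

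Pcdhga6 was lower in Bahd1-KO. It had 18.2, 20.4 and 18.6 CPM in Bahd1-WT and 11.0, 11.6 and 14.8 CPM in Bahd1-KO, with every Bahd1-KO mouse below every Bahd1-WT mouse. The log2 fold change was -0.61 (SE 0.19, adjusted p = 0.078, edgeR's quasi-likelihood test) and -0.56 without Bahd1-KO replicate 2. It was -0.82 with the offset on whole exons and -0.58 with that on countable bases. In Bahd1-WT Pcdhga6 had the highest level per length of the A and B genes, 7.30 CPM per kb, and in Bahd1-KO 4.77. Pcdhgb1 had 6.73, 6.90 and 8.22 CPM in Bahd1-WT and 3.79, 5.12 and 6.25 in Bahd1-KO, without overlap. Its log2 fold change was -0.52 (SE 0.24), and -1.05 with the offset. Pcdhgb6, the most abundant B gene, had 14.9, 14.0 and 15.3 CPM in Bahd1-WT and 10.6, 11.9 and 12.3 in Bahd1-KO, also without overlap. It had a log2 fold change of -0.35 (SE 0.17), and -0.95 with the offset.

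Pcdhga8 and Pcdhgb4 had log2 fold changes of -0.41 and -0.35 without overlap of the genotypes. Pcdhga3, Pcdhga11, Pcdhgb7 and Pcdhgb2 had log2 fold changes of -0.21, -0.14, -0.20 and -0.11, and their values overlapped. These 4 were, with the offset on whole exons, at -0.61, -0.56, -0.69 and -0.50, each with an unadjusted p under 0.05, and Pcdhga8 and Pcdhgb4 were at -0.75 and -0.53. On the countable bases the 4 were at -0.46, -0.42, -0.60 and -0.33, and Pcdhga8 and Pcdhgb4 at -0.62 and -0.36. There Pcdhgb2 and Pcdhgb4 had unadjusted p of 0.11 and 0.073 by edgeR's quasi-likelihood test. Altogether 6 of the A and B genes were lower in Bahd1-KO without overlap (19.3% of all genes), and only Pcdhga6 had an unadjusted p under 0.05 in this direction without an offset. From the first to the last gamma gene, Spearman's rho between order and log2 fold change was 0.61 over 22 genes, as a description over genes that share their libraries.

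The genotypes did not overlap in the composition of the gamma cluster, in which depth and scaling factors cancel. The C-type genes took 27.9, 21.1 and 26.7% of the cluster's counts in Bahd1-WT and 33.8, 42.9 and 38.6% in Bahd1-KO. Here replicate 1 was above all Bahd1-WT mice as well. The A genes took 52.0 to 57.2% in Bahd1-WT and 42.2 to 48.5% in Bahd1-KO, and the B genes 20.0 to 21.7% and 14.9 to 17.7%. Pcdhgc5 alone took 9.55, 7.22 and 8.98% in Bahd1-WT and 13.6, 13.9 and 13.6% in Bahd1-KO. Of the 22 shares, 4 were higher in Bahd1-KO without overlap (Pcdhgc3, Pcdhgc4, Pcdhgc5 and Pcdhga12) and 10 were lower. When the C-type genes were left out of the total, 3 of 19 shares were higher and 2 were lower without overlap. Pcdhga12 then took 4.14, 3.42 and 3.65% in Bahd1-WT and 5.66, 9.56 and 7.47% in Bahd1-KO, and Pcdhga6 11.0, 12.8 and 11.0% against 9.28, 7.87 and 8.75%. Shares do not cancel GC content, in which the members differ.

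**Figure D3:**
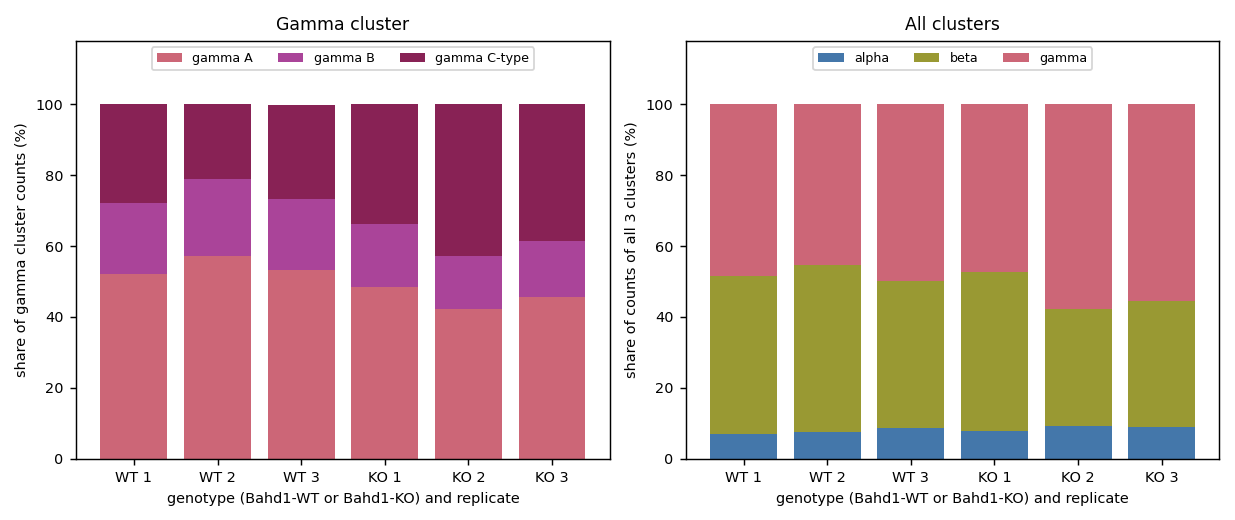
Share of each gamma subfamily in the counts of the gamma cluster (left) and of each cluster in the counts of all 3 clusters (right), in percent, per mouse. The gamma C-type share is 21.1 to 27.9% in the Bahd1-WT mice and 33.8 to 42.9% in the Bahd1-KO mice, while the shares of the clusters overlap between genotypes.

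In the alpha cluster the C-type share was 50.4, 51.9 and 53.3% in Bahd1-WT and 51.0, 58.7 and 61.5% in Bahd1-KO, which overlapped. In the beta cluster 3 of 22 shares were higher and 3 lower without overlap. Pcdhb21 was among the lower, with 2.19 to 2.48% in Bahd1-WT and 1.55 to 1.79% in Bahd1-KO. Over all 3 clusters, the beta genes took 44.6, 47.3 and 41.3% of the counts in Bahd1-WT and 44.8, 33.2 and 35.4% in Bahd1-KO.

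The 2 Bahd1-KO mice with the high gamma C-type and Pcdhga12 levels also had the highest summed oligodendrocyte and choroid plexus markers. The 3 oligodendrocyte markers used here (Mbp, Mog and Mag) summed to 1540, 1442 and 1326 CPM in Bahd1-WT and 1752, 4691 and 3094 CPM in Bahd1-KO replicates 1, 2 and 3, most of it from Mbp. Mag and Mbp had log2 fold changes of 1.66 and 1.17, and Mog of -0.08, so the markers did not move as one. Mag, Mbp and Ttr, a choroid plexus marker, were at 0.75, 0.81 and 1.46 with the offset on whole exons. Mog was then at -0.18, and the other choroid plexus markers Kl, Clic6, Kcnj13 and Folr1 were at -0.27, -0.48, -0.26 and 0.20. The 5 choroid plexus markers summed to 375, 361 and 282 CPM in Bahd1-WT and 459, 1080 and 615 CPM in Bahd1-KO, with log2 fold changes of 1.29 for Ttr and -0.40 to 0.66 for the other 4. The 4 olfactory sensory neuron markers summed to 37.4, 19.5 and 33.6 CPM in Bahd1-WT and 62.0, 91.3 and 43.0 CPM in Bahd1-KO, without overlap. Most of this was Gng13, with at most 32.6 CPM in a Bahd1-WT mouse and 47.8, 86.1 and 41.9 CPM in Bahd1-KO, whose log2 fold change turned to -0.40 with the offset on whole exons. Omp, Cnga2 and Stoml3 overlapped between genotypes. The 4 Purkinje cell markers summed to 684, 850 and 780 CPM in Bahd1-WT and 757, 512 and 552 CPM in Bahd1-KO, and of these Pcp2 alone had a log2 fold change above 0, 2.90. The astrocyte markers summed to 2010 to 2241 CPM in Bahd1-WT and 1700 to 1969 in Bahd1-KO, and the microglia markers to 115 to 158 and 135 to 176 CPM. Neither list moved as one. Aldh1l1 and Gfap had log2 fold changes of 1.03 and 0.67, and the other 3 astrocyte markers of -0.47 to -0.23. Tmem119, Csf1r and Cx3cr1 were at 1.38, 0.54 and 0.18, and P2ry12 at -0.54. With the offset on whole exons Aldh1l1, Gfap and Tmem119 were at 0.34, 0.25 and 0.15. The lung genes Sftpa1, Sftpc and Scgb1a1, a check for RNA of another tissue, summed to 95.2, 23.4 and 2.06 CPM in Bahd1-WT and 0.44, 1.37 and 0.86 CPM in Bahd1-KO, so that Bahd1-WT replicates 1 and 2 stood apart from the other mice. The part of these cells and tissues in the protocadherin values was not tested.

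The fold change rose with GC content over all genes, and less closely over the members. Over 23931 genes, Spearman's rho between log2 fold change and the GC content of countable exon bases was 0.75, and over the 57 members it was 0.49. Within clusters it was 0.32 for alpha, 0.50 for beta and 0.23 for gamma. With the offset on countable bases, rho over the 57 members turned to -0.54. Beta members had a median GC content of 46.1%, gamma members 51.5% and alpha members 52.9% over the bases that could be counted. With the offset on whole exons, the medians of the log2 fold change became 0.11 for alpha, 0.0024 for beta and -0.51 for gamma. At an unadjusted p under 0.05, 13 gamma members were then lower (11.4% of all genes) and 1, Pcdhga12, higher (9.96% of all genes). In the beta cluster 2 were lower, Pcdhb7 and Pcdhb9, and 1 higher.

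With the offset on the countable bases alone, 10 gamma members were lower (11.3% of all genes) and Pcdhga12 was the only higher one (9.92% of all genes). The medians were -0.35 for gamma, -0.01 for beta and -0.52 for alpha, with 6 alpha members lower. The alpha median thus differed in direction between the offsets, which differ in both the GC content and the length given to each gene. Over whole exons the median GC content of the alpha members was 47.3%. The C-type genes of the gamma cluster lay between 0.02 and 0.19 in this fit, and the C-type genes of the alpha cluster, Pcdhac1 and Pcdhac2, at -0.11 and -0.76. Pcdha8, Pcdhga12 and Pcdhb3 were above 0 at an unadjusted p under 0.05 in both offset fits, and Pcdhga6, Pcdhgb1 and Pcdhgb6 were among those below 0. Without Bahd1-KO replicate 2, the fit with the offset on whole exons gave 11 gamma members lower (7.54% of all genes) and 1 higher (6.63% of all genes), and that with no offset 1 lower (9.35% of all genes) and 2 higher (15.5% of all genes).

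**Figure D4:**
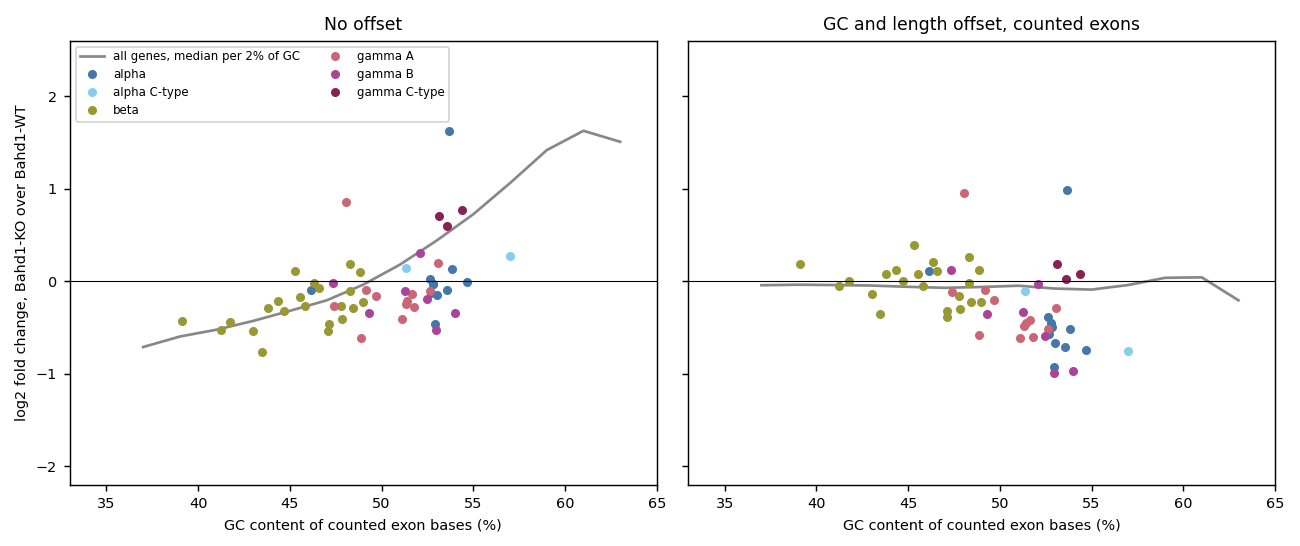
Log2 fold change (Bahd1-KO over Bahd1-WT) against the GC content of countable exon bases for the 57 members, without (left) and with (right) the offset on countable bases. The grey line is the median of all genes tested in steps of 2% GC. The line rises from -0.71 to 1.63 on the left, and most alpha and gamma A and B members lie below it, while on the right Pcdha8 and Pcdhga12 lie highest, at 0.99 and 0.95.

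The non-clustered protocadherins, which are single genes outside the clusters with their own cytoplasmic tails, had log2 fold changes of both signs. Of 12 tested, 2 were higher (19.9% of all genes) and 3 lower (12% of all genes) at an unadjusted p under 0.05, with a median log2 fold change of -0.35. Pcdh1, which like Pcdh12 lies on chromosome 18 beyond the gamma cluster and Arap3, had 37.5, 18.1 and 25.3 CPM in Bahd1-WT and 42.5, 134.4 and 86.3 in Bahd1-KO, a log2 fold change of 1.70, and Pcdh8 had 0.70. Pcdh11x and Pcdh15 had log2 fold changes of -0.67 and -0.61. With the offset on whole exons Pcdh1 was at 0.33, Pcdh8 turned to -0.54, and Pcdh11x and Pcdh15 were at -0.05 and -0.18. The 2 genes with an unadjusted p under 0.05 were then Pcdh1 and Pcdh10 (0.30), both higher (9.96% of all genes, against 11.4% lower).

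Of 13 genes flanking or lying between the clusters, 4 were higher (19.9% of all genes) and none was lower (12% of all genes) at an unadjusted p under 0.05 by edgeR's quasi-likelihood test. They were Ndufa2, Rell2, Fchsd1 and Arap3, with log2 fold changes of 2.02, 1.95, 1.12 and 0.84. With the offset on whole exons these were 1.44, 0.50, 0.15 and 0.13, and only the first 2 kept an unadjusted p under 0.05. The highest value of each came from Bahd1-KO replicate 2, as for Rell2 with 30.4, 19.1 and 20.9 CPM in Bahd1-WT and 41.3, 163.4 and 66.0 in Bahd1-KO. Taf7, which lies between the beta and gamma clusters, had a log2 fold change of -0.41, and of 0.17 with the offset.

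Of 19 genes for factors that act on protocadherin promoters, 4 were higher (19.9% of all genes) and 7 lower (12% of all genes) at an unadjusted p under 0.05. Ctcf, whose product anchors the promoter to enhancer loops of the clusters, had 103, 108 and 104 CPM in Bahd1-WT and 96.5, 75.1 and 88.2 in Bahd1-KO, with a log2 fold change of -0.28. Smchd1, a repressor of clustered protocadherins, had 69.0, 71.7 and 71.2 CPM against 59.5, 35.6 and 50.6, with a log2 fold change of -0.54. Setdb1, a repressive histone methyltransferase, had a log2 fold change of -0.11. Those with the lowest p were Trim28, Wiz and Ehmt2, higher at 1.18, 1.63 and 1.46, and Nipbl, the cohesin loader, lower at -0.57. With the offset on whole exons these were 0.10, 0.32, -0.05 and -0.17, and Smchd1 was at -0.12. The genes with an unadjusted p under 0.05 were then Wiz, higher (9.96% of all genes), and Ctcf (-0.24), Wapl, Rest and Dnmt3a, lower (11.4% of all genes).

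Of 18 genes for proteins that bind or act downstream of protocadherins, 2 were higher (19.9% of all genes) and 3 lower (12% of all genes) at an unadjusted p under 0.05, with a median log2 fold change of -0.09. Axin1, the partner of the Pcdhgc3 tail, had 16.9, 13.9 and 15.7 CPM in Bahd1-WT and 19.5, 29.4 and 22.2 CPM in Bahd1-KO, with a log2 fold change of 0.61, which turned to -0.37 with the offset on whole exons. Brk1, a subunit of the WAVE complex, had a log2 fold change of 0.43, and of 0.24 with the offset. Nlgn1 and Adam10, a protease that cleaves gamma protocadherins, had log2 fold changes of -0.67 and -0.52, and of -0.11 and -0.05 with the offset.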

How the data were processed

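RNA of 6 hemispheres, 3 per genotype, was analysed from the deposited table of whole-number counts per gene, with no normalization. Per the methods and the submitters' processing notes, the authors trimmed reads with cutadapt 1.11, aligned them to GRCm38 (STAR 2.5.0a and Tophat2 are both named) and counted exons of Ensembl genes with featureCounts 1.4.6-p3, using strand. All technical sequencing runs of a mouse are in 1 column, and 0 columns belonged to other samples. Genes with at least 10 counts over the 6 libraries were kept, 23975 of 53801, among them 57 of the 58 members. Genotypes were compared with edgeR 4.0.16 (quasi-likelihood test, TMM, genotype only, Benjamini-Hochberg over all genes tested) in R 4.3.3, and by DESeq2 1.42.0 as an alternative. A gene was called at an adjusted p under 0.05 and at least 2-fold change. The p-values measure the spread between 3 mice per genotype. Floors of 3 counts cover counting error only.

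Positions, exon lengths and GC content came from a GENCODE annotation of GRCm38, and countable bases were exon bases that no other gene of the same strand covers. The offset was fitted in each library from splines of GC content and log length (5 and 3 degrees of freedom) over 13250 expressed genes. The scripts were tested on simulated data. Other scalings, filters, offsets, a replicate block, DESeq2 and leaving out each library were run as alternatives. Named were the 5 C-type genes and, in each other subfamily, the 3 members of highest mean CPM and the 3 of lowest unadjusted p, 26 members in all, with up to 4 genes of lowest p per comparison list, Ctcf, Smchd1, Setdb1 and Bahd1. The members and the lists were chosen with earlier results of these data known. An oligodendrocyte marker of the list is not reported here and was left out of its sum and counts. Sequences of the members were not used here.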

Additional observations from a re-analysis of the deposited data

How the results depend on the processing

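Under all alternatives no beta member was called. Pcdha8 was called with total counts alone, with DESeq2 with and without a prior, and with no filter on low counts (1 alpha member each), settings under which 2007 to 2770 of all genes were called against 2 in the edgeR fit reported. Leaving out Bahd1-KO replicate 1 called 3988 of all genes, and among members Pcdha8, Pcdhga12 and Pcdhgc3. Over the 6 leave-one-out fits, called members numbered 0 to 1 in the alpha and 0 to 2 in the gamma cluster. Members with an unadjusted p under 0.05 were 1 to 2 higher and 0 to 1 lower (alpha), 1 to 6 lower (beta: 1 without Bahd1-WT replicate 1 or 2, 2 without Bahd1-WT replicate 3 and 3 without Bahd1-KO replicate 1), and 1 to 4 higher and 1 to 2 lower (gamma, 1 higher without Bahd1-WT replicate 2 or Bahd1-KO replicate 3). The medians were -0.069 to 0.11 (alpha, above 0 without Bahd1-WT replicate 3 or Bahd1-KO replicate 1), -0.36 to -0.23 (beta) and -0.28 to -0.0056 (gamma, the latter without Bahd1-KO replicate 1). Pcdha5 lay between -0.14 and 0.11, Pcdha12 between -0.15 and 0.11, Pcdhgb2 between -0.25 and 0.041, and Pcdhb14 between -0.50 and -0.37. Counts in the lists were 1 to 8 of the non-clustered protocadherins, 3 to 6 neighbours, 4 to 11 regulators, 1 to 12 partners and 9 to 19 brain cell markers (15 of 35 in the fit on all mice), while the count over all genes itself ran from 4286 (without Bahd1-WT replicate 2) to 10244 (without Bahd1-KO replicate 1).

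Upper-quartile factors moved the median of all genes from -0.06 to -0.20 and gave a beta median of -0.42 and Pcdhac1 at -0.011. They left 5 gamma members lower, with 8322 of all genes at an unadjusted p under 0.05. Total counts alone left 1 beta member lower, with 7131 of all genes at an unadjusted p under 0.05 against 7627 in the fit reported, and put Pcdha5 at 0.046 and Pcdha12 at 0.059. Pcdha12 was at 0.0082 with DESeq2 size factors, 0.0094 with DESeq2 and a prior and 0.0099 without a prior.

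The GC and length offset gave medians of 0.11 (alpha), 0.0024 (beta) and -0.51 (gamma). Under it 1 beta member was higher and 2 lower, and 1 gamma member higher and 13 lower. Lists counted 2 non-clustered protocadherins, 2 neighbours, 5 regulators and 3 partners, with 5133 of all genes at an unadjusted p under 0.05. It turned Pcdhgc4 (-0.0038), Pcdha5 (0.11), Pcdha12 (0.074), Pcdha3 (0.035), Pcdhb14 (0.19) and Pcdhb20 (0.0050). On countable bases (added after seeing the data) the medians were -0.52, -0.013 and -0.35, 6 alpha members were lower, 1 beta member higher and 2 lower, and 1 gamma member higher and 10 lower, with list counts of 2, 2, 5 and 3 and 5095 of all genes. Pcdhac1 (-0.11), Pcdhac2 (-0.76), Pcdhb14 (0.19) and Pcdhb20 (0.00062) turned. DESeq2 with this kind of offset on whole exons (also added) gave medians of 0.12, 0.022 and -0.45, 1 beta member higher and 1 lower, 1 gamma member higher and 13 lower, and list counts of 3, 2, 3 and 3 and 4722 of all genes. Pcdha5 (0.12), Pcdha12 (0.085), Pcdha3 (0.050), Pcdhb14 (0.19) and Pcdhb20 (0.025) turned. Leaving out Bahd1-KO replicate 2 with the offset (also added) gave -0.026 for beta with 0 lower, -0.41 for gamma with 1 higher and 11 lower, list counts of 1, 2, 1 and 2, 3264 of all genes, Pcdha5 at 0.20 and Pcdhb14 at 0.0061.

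Replicate numbers are shared by mice of different genotype without a stated tie. Deviations from the group means correlated at -0.65, -0.66 and -0.14 between mice of the same number, and at -0.095 to 0.635 between mice of different numbers. The deviations of the 3 mice of a genotype sum to 0 and were not freed of the GC trend. They therefore cannot show whether the numbers pair mice. A fit with the replicate block left 1 beta member lower, 2 non-clustered protocadherins and 1 partner, with 5231 of all genes at an unadjusted p under 0.05. The replicate block with the offset gave medians of 0.11, -0.0031 and -0.52, 0 beta members lower, 1 gamma member higher and 13 lower, list counts of 1, 2, 1 and 2 and 3844 of all genes, and put Pcdha5 at 0.11, Pcdha12 at 0.071, Pcdha3 at 0.023, Pcdhb14 at 0.16 and Pcdhb20 at 0.0017. The causes of these shifts were not tested.

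With the C-type genes left out of the total, 5 gamma shares in place of 14 did not overlap. Over whole exon lengths the median level in Bahd1-WT was 0.28 CPM per kb for alpha and 1.56 for gamma, in place of 0.59 and 2.84. Of the members tested, Pcdha8 and Pcdhb1 rest on the fewest counts, 7 to 52 per mouse.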

Other observations

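The span of the clusters holds 27 other genes, of which 16 could be tested, and 7 of those tested lie on the minus strand over a counted exon of a member. The library kit and the counting used strand, and how many reads were nevertheless counted on the other strand was not tested. BC037039, over Pcdhgc3, is named here after its values were seen. It had 26, 24 and 37 counts in Bahd1-WT and 23, 80 and 44 in Bahd1-KO. Replicate 1 was lowest and replicate 2 highest of the Bahd1-KO mice, as for Pcdhgc3 itself (3355, 1511 and 2569 counts in Bahd1-WT and 1349, 6266 and 3469 in Bahd1-KO). The Bahd1-KO library totals, 42297150, 93557948 and 55973119, had the same order, so these unscaled counts do not show a shared change. The log2 fold change of BC037039 was 0.87 (SE 0.32, adjusted p = 0.11, edgeR's quasi-likelihood test). Gm26672, over the exons from Pcdhga10 to Pcdhga12, had 126, 58 and 116 counts in Bahd1-WT and 57, 95 and 67 in Bahd1-KO, with a log2 fold change of -0.18. Gm10545, over the end of the variable alpha exons, had 35, 44 and 32 counts against 21, 19 and 20, with -0.61. The lincRNA 3222401L13Rik, which ends just before the gamma cluster on its strand, had 548, 388 and 411 counts in Bahd1-WT and 173, 325 and 260 in Bahd1-KO, with a log2 fold change of -0.59 (SE 0.21, adjusted p = 0.10, edgeR's quasi-likelihood test).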
